A study of Mus musculus with 9 samples.

Results

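Messenger RNA of 10 circadian clock genes was followed in the renal cortex of mice after kidney ischemia, with and without the compound TJ0113. The genes were Arntl (also called Bmal1), Per1, Per2, Per3, Cry1, Cry2, Nr1d1, Nr1d2, Dbp and Nfil3. They were chosen by symbol as core parts of the clock, with earlier results of these data known. All 10 were found among the 34669 genes of the table and passed the expression filter. All mice were wild-type male C57BL/6, 10 weeks old, kept in a cycle of equal light and dark periods. Sham mice (n = 3) were operated on without clamping. Vehicle mice (n = 3) underwent bilateral ischemia-reperfusion injury (bIRI) by clamping of the left and right renal pedicles for 30 min. They were gavaged daily with vehicle from 3 days before surgery until they were killed on day 14. TJ0113 mice (n = 3) had the same surgery and schedule with TJ0113. The labels give neither the hour of killing nor whether or on which day sham mice were gavaged and killed. Hour, day, gavage and clamping therefore cannot be told apart in differences from sham. The hour is missing for all groups. It therefore cannot be told apart from the compound between TJ0113 and vehicle, or from other spread within a group.

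The mammalian clock is a loop of transcription factors that runs in nearly every cell, tubular cells of the kidney included. The proteins of Arntl and Clock bind E-box DNA and switch on the Per and Cry genes, whose proteins return to inhibit them. They also switch on Nr1d1 and Nr1d2, which encode the repressors REV-ERBα and REV-ERBβ. These compete with ROR activators at ROR elements (RORE) of genes such as Arntl and Nfil3. Dbp, Tef and Hlf encode activators of the D-box, and Nfil3 encodes a repressor of the same site. In the kidney the clock is known for daily rhythms in sodium transport, water handling and filtration. Per1, and to a lesser degree Per2, are also known to respond within hours to glucocorticoids and other acute stimuli.

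Promoter sequence is shown for the members whose start region held a clock motif and whose messenger RNA the results turn on. RefSeq gave the window from 250 bases before to 50 bases after an annotated start (GRCm38.p6) for 9 of the 10 members, all but Per2. The 250 bases before the start are printed 5′ to 3′ on the gene's strand, with motif matches in capitals. The motifs searched on both strands were the E-box CACGTG, the D-box forms TTATGTAA, TTACGTAA and TTATGCAA, the RORE cores TAGGTCA and TGGGTCA, and the cyclic AMP element TGACGTCA. None of the matches overlapped another motif.
Per1, chr11:69098699-69098948, plus strand: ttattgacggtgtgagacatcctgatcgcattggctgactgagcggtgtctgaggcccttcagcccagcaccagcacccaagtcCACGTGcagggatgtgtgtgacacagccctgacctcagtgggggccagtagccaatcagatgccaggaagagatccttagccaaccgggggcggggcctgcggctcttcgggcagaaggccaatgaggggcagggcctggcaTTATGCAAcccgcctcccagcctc
Cry1, chr10:85185055-85185304, minus strand: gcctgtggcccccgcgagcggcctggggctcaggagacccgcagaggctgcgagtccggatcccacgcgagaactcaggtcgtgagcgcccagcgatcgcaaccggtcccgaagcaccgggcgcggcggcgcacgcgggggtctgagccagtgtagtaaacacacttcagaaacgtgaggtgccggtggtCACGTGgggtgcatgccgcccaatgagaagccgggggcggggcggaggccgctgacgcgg
Per3, chr4:151044666-151044915, minus strand: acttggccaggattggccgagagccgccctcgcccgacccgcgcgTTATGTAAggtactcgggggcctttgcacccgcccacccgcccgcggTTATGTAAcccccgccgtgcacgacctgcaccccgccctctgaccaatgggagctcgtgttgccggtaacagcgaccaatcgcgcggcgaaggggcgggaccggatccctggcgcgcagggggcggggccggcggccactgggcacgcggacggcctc
Nfil3, chr13:52981040-52981289, minus strand: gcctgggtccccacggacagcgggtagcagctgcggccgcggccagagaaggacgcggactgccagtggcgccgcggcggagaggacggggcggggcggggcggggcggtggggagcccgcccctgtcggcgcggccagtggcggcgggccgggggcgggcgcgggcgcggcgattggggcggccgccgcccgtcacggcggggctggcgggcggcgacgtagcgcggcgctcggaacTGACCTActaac

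The Per1 window held an E-box whose first base lay at -166 from the start and a D-box at -24. That window belongs to the first of the 2 annotated Per1 starts, and the other held none of these motifs. It lies inside the Per1 gene as GENCODE M21 places it, which begins upstream at chr11:69095217. The region of that upstream start was not searched. The Cry1 window held an E-box at -60, and the Per3 window D-boxes at -205 and -158. The Nfil3 window held the RORE core TAGGTCA at -12 on the opposite strand, printed above on the gene's strand as TGACCTA. That core lies inside the Nfil3 gene as GENCODE M21 places it, which begins upstream at chr13:52981073. Arntl held the same core 31 bases downstream of the second of its annotated starts, within the site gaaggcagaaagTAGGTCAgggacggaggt (chr7:113207529-113207558, plus strand). Among 27025 genes with a RefSeq window, 8.09 percent held the E-box, 2.1 percent one of the D-box forms, 7.35 percent one of the RORE cores and 2.03 percent the cyclic AMP element. Each of the first 3 motifs was in 2 of the 9 members with a window and the cyclic AMP element in 0 of them. The GC box GGGCGG, a common motif searched for comparison and not in capitals above, was in 8 of the 9. It was in 38.2 percent of all genes with a window, so the members also exceeded the share of all genes in a motif not particular to the clock. A match is a description of letters and not a measured binding site.

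Levels are in FPKM, fragments per kilobase of gene scaled to the fragments sequenced, as the authors deposited them. The spacing of low values gave an estimated 31220000 to 42730000 fragments a library. At that depth Per1, Per2, Per3, Cry2, Nr1d1, Nr1d2 and Dbp each had at least 560 fragments in every library. Arntl had 92 to 179 and Nfil3 99 to 631, and Cry1 had as few as 32, where counting error alone is 17.7 percent. Sham libraries were alike, while injured libraries spread widely, and the median coefficient of variation of a tested gene was 8.9 percent in sham, 23.9 percent with vehicle and 17.4 percent with TJ0113. Vehicle library 2 was the vehicle library nearest to sham on the first principal component, at -8 against 30.8 and 70.6. Sham lay at -61.7 to -52.5 and TJ0113 at 4.5 to 51.1. The tissue had its defining markers: the summed level of 8 proximal tubule markers was 3430 to 3861 FPKM in sham, 1253 to 3007 with vehicle and 1851 to 3016 with TJ0113. Over the same groups 4 tubular injury markers summed to 3.21 to 4.13, 179 to 478 and 126 to 407 FPKM, and 6 macrophage markers to 36.9 to 53.5, 270 to 1628 and 455 to 909 FPKM. Lyz2 made up most of the macrophage sum in the injured libraries, at 168 to 1057 FPKM with vehicle and 272 to 560 FPKM with TJ0113. Csf1r in vehicle library 2, at 11.4 FPKM, lay within the sham range of 10.5 to 14.9 FPKM. Distal segments were uneven among the injured libraries. In TJ0113 libraries 1 to 3 thick ascending limb markers summed to 224, 955 and 367 FPKM. Distal convoluted tubule markers summed to 32.5, 212 and 84.5 FPKM there, and collecting duct markers to 104, 397 and 184 FPKM. Vehicle libraries ranged from 373 to 1010, 27.9 to 147 and 206 to 297 FPKM in these lists. Sham libraries ranged from 603 to 860, 103 to 131 and 159 to 224 FPKM. No gene of these lists was at 0 in all libraries. In bulk cortex, fewer cells of a type and less RNA per cell cannot be told apart, and the part of these shifts in the clock results was not tested.

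Differences were tested with limma on log2(FPKM + 1) over 15453 genes whose mean FPKM reached 0.5, with Benjamini-Hochberg adjustment over all of them and a threshold of 0.05. The median gene was 0.30 higher on the log2 scale in vehicle than in sham, and 0.26 higher with TJ0113 than in sham. Log2 differences from sham are therefore given relative to the median gene, while p-values belong to the differences as fitted. Nothing in the labels says how the 3 samples of a group were obtained beyond being separate samples, so p-values measure the spread between these samples.

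Injured kidneys given vehicle differed from sham kidneys in 6 of the 10 genes: 5 rose (Per1, Per2, Per3, Cry1 and Nfil3) and 1 fell (Nr1d1). Arntl, Cry2, Nr1d2 and Dbp did not pass. Among all tested genes 31.3 percent rose and 5.42 percent fell, so a rise was common in this comparison. At an unadjusted p under 0.05 there were 6 members, against 50.8 percent of tested genes. Groups did not overlap in 7 members, 6 higher and 1 lower, against 56.8 percent of genes (45.9 percent higher and 10.9 percent lower). Without sham library 2, 3 members passed. The members' median change was 0.29 above that of all genes. With libraries scaled by the median ratio, 4 members rose and 2 fell, while the split of all genes went from 4839 higher and 837 lower to 2379 higher and 2472 lower.

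**Figure D1:**
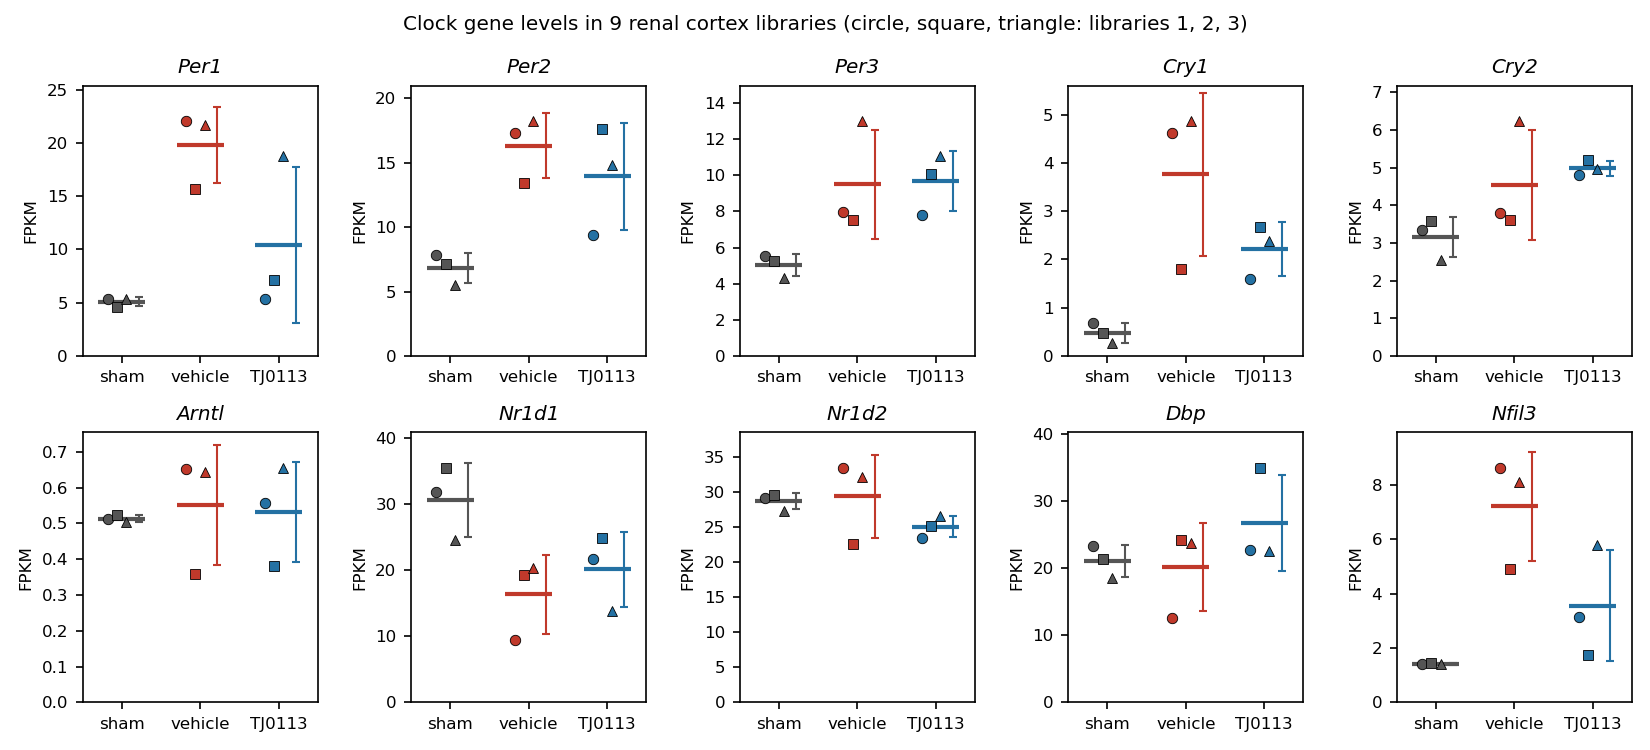
FPKM of each clock gene (vertical axes from 0) in the sham, vehicle and TJ0113 groups. Symbols are single libraries, thick bars group means and error bars SD (n = 3); Per1 of TJ0113 library 3, at 18.8 FPKM, lies among the vehicle libraries while TJ0113 libraries 1 and 2 lie at 5.33 and 7.12 FPKM.

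The Period genes encode the inhibitory partners that accumulate and turn off Arntl-Clock. Per1 (chr11:69095217-69109960, plus strand; these positions are from GENCODE M21, GRCm38) was at 5.32, 4.61 and 5.31 FPKM in sham libraries 1 to 3, at 22, 15.7 and 21.7 FPKM in the vehicle libraries, and at 5.33, 7.12 and 18.8 FPKM in the TJ0113 libraries. All vehicle libraries were far above sham, whereas TJ0113 library 1 was only just above the highest sham library and library 3 was among the vehicle libraries. Per1 rose between sham and vehicle by 1.46 ± 0.36 (SE) relative to the median gene (adjusted p = 0.0116 by limma with Benjamini-Hochberg adjustment), a ratio of mean FPKM of 3.9. The call was lost without sham library 2 (adjusted p = 0.0507, the highest over 19 alternative settings, where the lowest was 0.00394). Between sham and TJ0113 the change was 0.46 ± 0.36 and did not pass (limma, adjusted p = 0.132).

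Per2 (chr1:91415982-91459324, minus strand) was at 7.82, 7.18 and 5.53 FPKM in sham, 17.3, 13.5 and 18.2 FPKM with vehicle, and 9.41, 17.6 and 14.8 FPKM with TJ0113. Every injured library was above every sham library. It rose with vehicle by 0.85 ± 0.22 relative to the median gene (limma, adjusted p = 0.011), a call kept in all 19 alternatives, with adjusted p from 0.00368 to 0.0498. It rose with TJ0113 by 0.64 ± 0.22 (limma, adjusted p = 0.0177), and this call was lost without sham library 2 or 3 or TJ0113 library 3 (adjusted p = 0.0578, 0.0709 and 0.0675). It was also lost with median-ratio scaling (0.0794) and quantile normalization (0.0523), against a lowest value of 0.012 over the alternatives.

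Per3 (chr4:151003652-151044665, minus strand), whose protein has a lesser part in keeping the rhythm, was at 5.5, 5.23 and 4.33 FPKM in sham, 7.96, 7.55 and 13 FPKM with vehicle, and 7.82, 10.1 and 11.1 FPKM with TJ0113. The injured libraries again lay above all sham libraries, with vehicle library 3 the highest. Per3 rose by 0.47 ± 0.21 with vehicle (limma, adjusted p = 0.0226) and by 0.56 ± 0.21 with TJ0113 (limma, adjusted p = 0.0185), both relative to the median gene. The vehicle call was lost without any single sham library or without vehicle library 3, and with median-ratio scaling, quantile normalization or no filter, with adjusted p over the alternatives from 0.00897 to 0.106. The TJ0113 call was lost without sham library 2 or 3 or TJ0113 library 3 (adjusted p = 0.0605, 0.0726 and 0.0723; lowest over the alternatives 0.0039).

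The proportion of Per1 to Per2 varied among the libraries. The ratio of their FPKM was 0.68, 0.643 and 0.961 in the sham libraries, 1.27, 1.17 and 1.19 in the vehicle libraries, and 0.566, 0.404 and 1.27 in the TJ0113 libraries. Per2 was the more abundant of the pair in every sham library and in TJ0113 libraries 1 and 2, and Per1 in every vehicle library and in TJ0113 library 3. These ratios are a description and carry no test.

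The cryptochromes are the partners of the Period proteins and the stronger direct repressors of Arntl-Clock. Cry1 (chr10:85131700-85185064, minus strand) was at 0.681, 0.482 and 0.275 FPKM in sham, 4.61, 1.81 and 4.86 FPKM with vehicle, and 1.6, 2.68 and 2.38 FPKM with TJ0113. It was scarce in sham, at 32 to 83 fragments a library, and all injured libraries lay above sham. Its ratio of mean FPKM between vehicle and sham, 7.84, was the largest of the 10 genes. Cry1 rose with vehicle by 1.32 ± 0.28 relative to the median gene (limma, adjusted p = 0.00878), kept in all 19 alternatives with adjusted p from 0.000324 to 0.0429. It rose with TJ0113 by 0.85 ± 0.28 (limma, adjusted p = 0.0175), with a ratio of means of 4.63. That call was lost without sham library 2 or 3 or TJ0113 library 3, and with no filter (adjusted p = 0.0608, 0.0674, 0.0653 and 0.0522; lowest over the alternatives 0.00253). Because 1 FPKM is added before the logarithm, the log2 changes of this low gene understate its ratio of means.

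Cry2 (chr2:92403646-92434043, minus strand) varied less, at 3.35, 3.57 and 2.55 FPKM in sham, 3.8, 3.61 and 6.23 FPKM with vehicle, and 4.79, 5.19 and 4.97 FPKM with TJ0113. All vehicle libraries lay above the highest sham library, libraries 1 and 2 by little and library 3 by more, while the TJ0113 libraries were close together above sham. Cry2 did not pass with vehicle (0.10 ± 0.18 relative to the median gene; limma, adjusted p = 0.113; 0.0439 without vehicle library 2, against a highest value of 0.986 over the alternatives). With TJ0113 it rose by 0.27 ± 0.18 relative to the median gene, only just past the threshold (limma, adjusted p = 0.0497). That call was lost in 12 of the 19 alternatives, among them every fit that left out a sham or a TJ0113 library and the fit without vehicle library 1, with adjusted p up to 0.29. The ratio of Cry1 to Cry2 in FPKM was 0.108 to 0.204 in sham, 0.5 to 1.21 with vehicle and 0.334 to 0.516 with TJ0113, without overlap between sham and either injured group. A transcript of the opposite strand, D930015M05Rik, covers 4.7 percent of the Cry2 exons at 0.507 to 1.17 FPKM, and strand was not stated for the counting.

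Arntl, the activator at the head of the loop, was the least abundant member in every library but sham 2 and 3, where Cry1 was lower, and did not pass in any comparison. Arntl (chr7:113207465-113314126, plus strand) was at 0.513, 0.523 and 0.504 FPKM in sham, 0.653, 0.359 and 0.643 FPKM with vehicle, and 0.558, 0.382 and 0.656 FPKM with TJ0113. The sham libraries were close together, and both injured groups had libraries above and below them. Arntl differed by -0.27 ± 0.12 from sham relative to the median gene with vehicle and by -0.25 ± 0.12 with TJ0113, and as fitted by 0.03 and 0.01 (limma, adjusted p = 0.855 and 0.937). The sign as fitted turned under median-ratio scaling (-0.14 in both comparisons) and quantile normalization (-0.27 and -0.34, the second with limma adjusted p = 0.0326, the lowest over 18 alternatives, where the highest was 0.997).

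The REV-ERB genes link the loops, and only Nr1d1 passed as fitted, with vehicle. Nr1d1 (chr11:98767932-98775333, minus strand) was at 31.8, 35.5 and 24.6 FPKM in sham, 9.42, 19.3 and 20.3 FPKM with vehicle, and 21.7, 24.8 and 13.9 FPKM with TJ0113. Every vehicle library lay below every sham library, with vehicle library 1 the lowest, while TJ0113 library 2 reached the lowest sham library. Nr1d1 fell with vehicle by 1.22 on the log2 scale relative to the median gene (-1.22 ± 0.30; limma, adjusted p = 0.0412), and only 2.9 percent of tested genes had a lower change. The call was lost with equal FPKM sums, with no filter, and without any single sham library, vehicle library 1 or TJ0113 library 1, with adjusted p over the alternatives from 0.0213 to 0.127. With TJ0113 the difference from sham was -0.87 ± 0.30 relative to the median gene and did not pass (limma, adjusted p = 0.139; 0.044 with median-ratio scaling and up to 0.412 over the alternatives). Exons of Thra, on the opposite strand, overlap 8.5 percent of the Nr1d1 exons. Thra was at 9.6 to 13.1 FPKM in sham and 9.12 to 16.5 FPKM with vehicle, overlapping ranges.

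Nr1d2 (chr14:18204054-18239127, minus strand) was at 29.2, 29.6 and 27.4 FPKM in sham, 33.5, 22.6 and 32.2 FPKM with vehicle, and 23.5, 25.1 and 26.6 FPKM with TJ0113. The vehicle libraries lay on both sides of sham, and the TJ0113 libraries just below it. Relative to the median gene it differed by -0.28 ± 0.16 with vehicle and -0.45 ± 0.16 with TJ0113, and neither difference passed as fitted (limma, adjusted p = 0.949 and 0.347). With median-ratio scaling both passed as lower (limma, adjusted p = 0.0325 and 0.00962), the lowest over the alternatives, where the highest were 1 and 0.578. The FPKM ratio of Nr1d1 to Nr1d2 was 0.896 to 1.2 in sham, 0.281 to 0.853 with vehicle and 0.521 to 0.988 with TJ0113. Vehicle and sham did not overlap in that ratio, and TJ0113 and sham did.

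Of the output factors of the D-box, Nfil3 passed and Dbp did not. Nfil3 (chr13:52967209-52981073, minus strand), the repressor of that site and a gene also known from immune cells, was at 1.4, 1.47 and 1.41 FPKM in sham, 8.64, 4.9 and 8.1 FPKM with vehicle, and 3.14, 1.76 and 5.8 FPKM with TJ0113. All injured libraries were above sham, with TJ0113 library 2 the nearest to it. Nfil3 rose with vehicle by 1.43 ± 0.30 relative to the median gene (limma, adjusted p = 0.00907), a ratio of means of 5.07, kept in all 19 alternatives with adjusted p from 0.00194 to 0.043. With TJ0113 the difference from sham was 0.55 ± 0.30 and did not pass (limma, adjusted p = 0.0623). It passed without TJ0113 library 2 (0.0174), without vehicle library 2 (0.0407) and with a pseudocount of 0.1 (0.0444), against a highest value of 0.201.

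Dbp (chr7:45705088-45710203, plus strand), the activator of the D-box and a direct target of Arntl-Clock, was at 23.3, 21.4 and 18.6 FPKM in sham, 12.6, 24.3 and 23.7 FPKM with vehicle, and 22.7, 35 and 22.5 FPKM with TJ0113. Vehicle library 1 was low and TJ0113 library 2 high, and the other libraries overlapped across the groups. Dbp did not pass in either comparison with sham (-0.41 ± 0.26 and 0.04 ± 0.26 relative to the median gene; limma, adjusted p = 0.749 and 0.367; 0.182 or more in all alternatives). The ratio of Nfil3 to Dbp in FPKM was 0.06 to 0.0755 in sham, 0.202 to 0.685 with vehicle, and 0.139, 0.0502 and 0.258 in TJ0113 libraries 1 to 3. Exons of Sphk2, on the opposite strand, overlap 18 percent of the Dbp exons, and Sphk2 was at 7.77 to 10.9 FPKM over the 9 libraries.

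**Figure D2:**
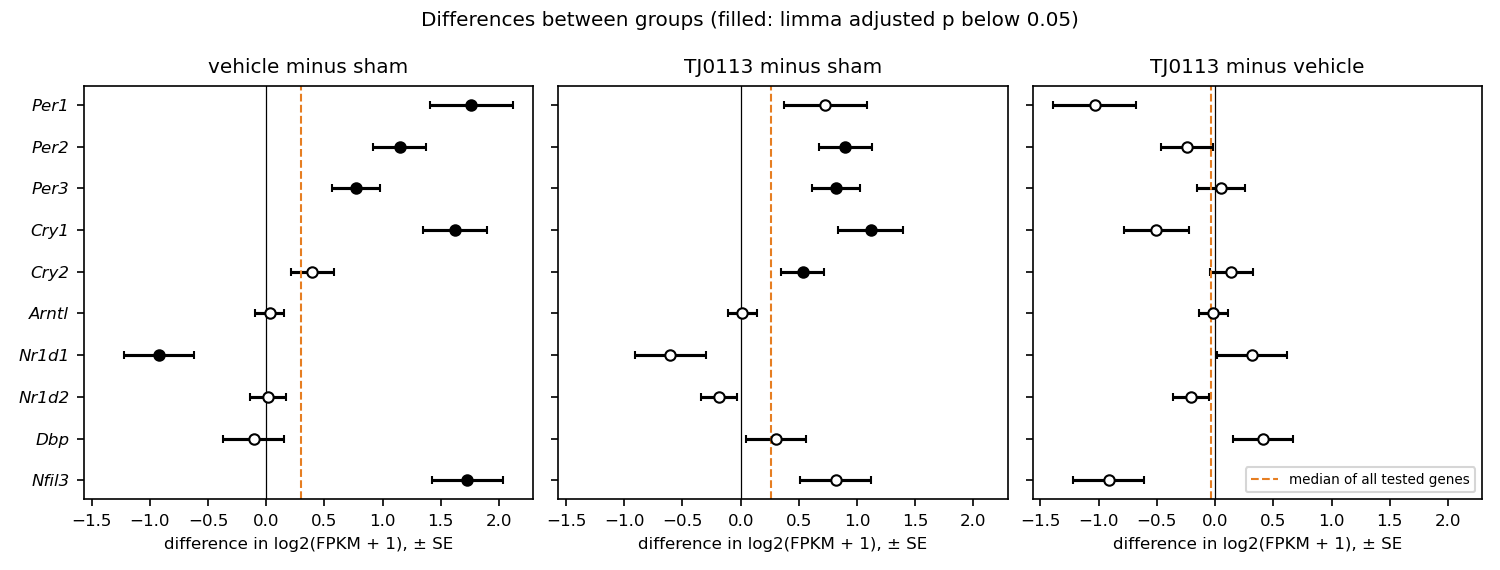
Difference in log2(FPKM + 1) of each clock gene in 3 comparisons (horizontal axis, point ± SE from limma), filled where the adjusted p was below 0.05. The dashed line is the median of all tested genes, 0.30, 0.26 and -0.03; 6 genes are filled for vehicle minus sham, 4 for TJ0113 minus sham and 0 for TJ0113 minus vehicle.

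With TJ0113, 4 of the 10 genes rose over sham (Per2, Per3, Cry1 and Cry2) and 0 fell, against 28.9 percent higher and 5.92 percent lower among all tested genes. At an unadjusted p under 0.05 there were 5 members, against 49 percent of genes. Groups did not overlap in 7 members, 6 higher and 1 lower, against 65.1 percent of genes (50.5 percent higher and 14.6 percent lower). The members' median change lay 0.37 above that of all genes. The count was 0 without sham library 2, sham library 3 or TJ0113 library 3. With median-ratio scaling 2 rose and 2 fell, and the split of all genes went from 4469 higher and 915 lower to 2669 higher and 3166 lower. The comparison shares its sham libraries with the one above, so the pair of counts is not independent.

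Between TJ0113 and vehicle none of the 10 genes passed, and none of the 15453 tested genes did (limma, smallest Benjamini-Hochberg adjusted p = 0.796). At an unadjusted p under 0.05 there were 2 members, Per1 and Nfil3, and 927 genes in all, or 6 percent of those tested. In both members the TJ0113 mean was about 0.5 of the vehicle mean, with ratios of 0.525 and 0.494. The hour of killing is not given for either group, so it and the compound cannot be told apart in these differences. Per1 differed by -1.03 ± 0.36 as fitted and Nfil3 by -0.91 ± 0.30 (limma, adjusted p = 0.796 for both, and from 0.133 and 0.0906 upward in the alternatives). TJ0113 library 3 was within the vehicle range in both, at 18.8 FPKM of Per1 and 5.8 FPKM of Nfil3, and libraries 1 and 2 were below every vehicle library. The groups therefore overlapped in all 10 genes, while 7.35 percent of tested genes had groups that did not (2.96 percent higher and 4.39 percent lower).

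The other members differed less between the injured groups. Cry1 differed by -0.50 ± 0.28, Per2 by -0.24 ± 0.22, Nr1d2 by -0.20 ± 0.16 and Arntl by -0.02 ± 0.12. Per3 was at 0.05 ± 0.21, Cry2 at 0.14 ± 0.18, Nr1d1 at 0.32 ± 0.30 and Dbp at 0.41 ± 0.26 (limma, adjusted p from 0.81 for Cry1 to 0.992 for Arntl). Spread within the TJ0113 group was uneven among the genes. Per1 and Nfil3 had coefficients of variation of 70.1 and 57.6 percent there, against 17.4 percent for the median tested gene, whereas Cry2 and Nr1d2 had 4 and 6.1 percent.

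Another 20 clock genes were read from a list of E-box and RORE factors, D-box activators, and kinases and ubiquitin ligase parts that set the stability of the Period and Cryptochrome proteins. Of the 20 genes, 19 were tested, and Rorb was below the filter at 0.0243 to 0.0877 FPKM. With vehicle 7 of 19 rose over sham and 2 fell, beside 31.3 and 5.42 percent of all tested genes, with a median 0.09 below that of all genes. With TJ0113 6 of 19 rose and 1 fell, beside 28.9 and 5.92 percent, with a median 0.05 below. With median-ratio scaling the counts were 6 and 4 with vehicle and 4 and 8 with TJ0113. Without sham library 2, 3 passed with vehicle and 1 with TJ0113. The count with vehicle was 4 or 5 without any of sham libraries 1 and 3 and vehicle libraries 1 and 3, and that with TJ0113 was 1 to 3 without sham library 1 or 3 or TJ0113 library 3. Between TJ0113 and vehicle 0 passed, and 3 of 19 were under an unadjusted p of 0.05, beside 6 percent of all tested genes.

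Bhlhe40, a repressor that competes for E-boxes, rose by 0.90 ± 0.18 with vehicle and 0.46 ± 0.18 with TJ0113, relative to the median gene (limma, adjusted p = 0.0077 and 0.0193). The TJ0113 call was lost with median-ratio scaling (0.178), and without any single sham library, TJ0113 library 1 or TJ0113 library 3 (0.0522 to 0.0778; lowest over the alternatives 0.0109). Its means were 20.3 ± 1.85 FPKM in sham, 47.9 ± 7.27 with vehicle and 34.6 ± 8.01 with TJ0113 (SD, n = 3).

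Both casein kinases that phosphorylate the Period proteins rose in both comparisons. Csnk1e was at 1.34 ± 0.0611 FPKM in sham, 6.74 ± 3.81 with vehicle and 5.13 ± 1.06 with TJ0113 (SD, n = 3), and rose by 1.30 ± 0.33 and 1.11 ± 0.33 relative to the median gene (limma, adjusted p = 0.0119 and 0.0152). The vehicle call was lost without sham library 2 (0.0501; lowest over the alternatives 0.000367), and the TJ0113 call without sham library 2 or 3 or TJ0113 library 3 (0.055 to 0.0631; lowest 0.000937). Csnk1d rose by 0.56 ± 0.16 and 0.27 ± 0.16 relative to the median gene (limma, adjusted p = 0.0106 and 0.0341). Its vehicle call was kept in all 19 alternatives, and its TJ0113 call was not followed through them. Timeless, whose mammalian protein works mainly at replication forks, rose by 0.40 ± 0.20 and 0.59 ± 0.20 (limma, adjusted p = 0.0278 and 0.0154). Its vehicle call was lost with quantile normalization, no filter, and without any single sham library, vehicle library 1 or vehicle library 3 (0.0588 to 0.0895; lowest 0.00192). Its TJ0113 call was lost without sham library 2 or 3 or TJ0113 library 3 (0.0572 to 0.0628; lowest 0.00174).

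Arntl2, a paralog of Arntl, rose by 0.59 ± 0.28 with vehicle and 0.72 ± 0.28 with TJ0113 relative to the median gene (limma, adjusted p = 0.0385 and 0.0279). Its vehicle call was not followed through the alternatives. Its means were 0.243 ± 0.0632 FPKM in sham, 1.35 ± 0.678 with vehicle and 1.58 ± 1.02 with TJ0113 (SD, n = 3). The TJ0113 call was lost with quantile normalization, no filter, and without any single sham library, TJ0113 library 1 or TJ0113 library 3 (0.0525 to 0.0914; lowest 0.00797). Fbxl21, an F-box protein that binds cryptochromes, fell in both comparisons (-0.82 ± 0.13 and -0.72 ± 0.13 relative to the median gene; limma, adjusted p = 0.0179 and 0.0255), from 1.02 FPKM in sham to 0.411 and 0.479 FPKM. The vehicle call was lost without sham library 2 or 3 or vehicle library 1 (0.0547 to 0.0725; lowest 0.00871). The TJ0113 call was lost with no filter and without any single sham library, TJ0113 library 2 or TJ0113 library 3 (0.0562 to 0.0977; lowest 0.00879).

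**Figure D3:**
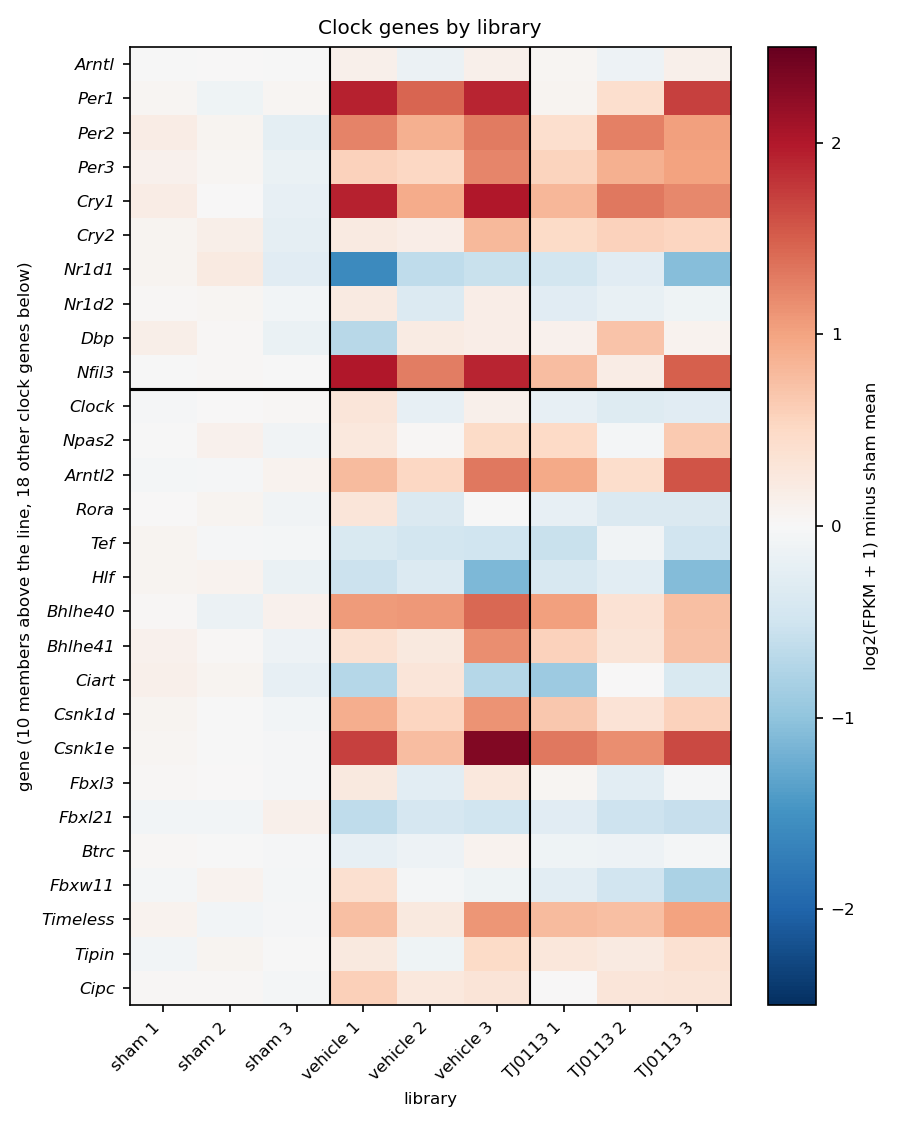
log2(FPKM + 1) minus the sham mean (colour) of the 10 members, above the line, and 18 other clock genes, below it, in each of 9 libraries. Per1, Cry1, Nfil3 and Csnk1e are the strongest red rows in vehicle libraries 1 and 3, and vehicle library 2 and TJ0113 library 2 are paler in Nfil3, at 1.28 and 0.19.

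The D-box activators beside Dbp were lower in the vehicle libraries than in any sham library. Tef was at 48.9 to 53.2 FPKM in sham, 35.3 to 38.5 FPKM with vehicle and 34.2 to 47.1 FPKM with TJ0113. It fell with vehicle (-0.75 ± 0.14 relative to the median gene; limma, adjusted p = 0.0361), and with TJ0113 it was at -0.63 ± 0.14 (adjusted p = 0.0645, and from 0.0148 with median-ratio scaling to 0.19 over the alternatives). The vehicle call of Tef was not followed through the alternatives. Hlf was at 12.7 to 15.4 FPKM in sham, 6.1 to 11.1 FPKM with vehicle and 6.25 to 11.8 FPKM with TJ0113, and did not pass (-0.97 ± 0.25 and -0.85 ± 0.25 relative to the median gene; limma, adjusted p = 0.0605 and 0.0905). It passed as lower in 6 of 19 alternatives with vehicle (0.0111 to 0.194 over all of them) and in 3 with TJ0113 (0.0166 to 0.297), median-ratio scaling among both (0.0358 and 0.0425). Groups that did not overlap, in the lower direction, were seen in 10.9 percent of genes with vehicle and 14.6 percent with TJ0113.

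Further genes of the list were named by small p without passing. With vehicle these were Bhlhe41 (0.30 ± 0.23 relative to the median gene), Tipin (-0.09 ± 0.15) and Npas2, a stand-in for Clock (-0.04 ± 0.19; limma, adjusted p from 0.0662 to 0.295). Between TJ0113 and vehicle Fbxw11, part of the ligase that degrades Period proteins, was at -0.60 ± 0.18 as fitted, Bhlhe40 at -0.47 ± 0.18, Clock at -0.35 ± 0.14 and Csnk1d at -0.32 ± 0.16 (limma, adjusted p = 0.796 for the first 3 and 0.805 for Csnk1d). Clock, the partner of Arntl, was at 2.83, 2.54 and 2.64 FPKM with TJ0113, all below the vehicle libraries at 4.46, 2.85 and 3.82 FPKM. The TJ0113 libraries were also below the sham libraries, at 3.31 to 3.53 FPKM.

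The RORE-driven and E-box-driven arms of the clock were set side by side in each library as a description. The RORE arm was the mean log2(FPKM + 1) of Arntl, Npas2, Clock, Nfil3 and Cry1, and the E-box arm that of Dbp, Tef, Hlf, Per1, Per2, Per3, Nr1d1 and Nr1d2. Cry1 is known to carry both E-box and RORE control and was placed in the RORE arm by choice, although its start window held an E-box and no RORE core. The RORE arm was at 0.99 to 1.08 in sham, 1.43 to 1.98 with vehicle and 1.26 to 1.69 with TJ0113. The E-box arm was at 3.87 to 4.10, 4.11 to 4.33 and 3.94 to 4.32. RORE minus E-box was -3.03, -2.97 and -2.88 in sham libraries 1 to 3, -2.13, -2.74 and -2.36 with vehicle, and -2.51, -3.06 and -2.46 with TJ0113. With Cry1 in the RORE arm, vehicle libraries lay above all sham libraries in that index, and TJ0113 library 2 lay below them. Within the RORE arm Nfil3 and Cry1 were the genes that rose, and within the E-box arm Per genes rose while Nr1d1 and Tef fell with vehicle. In vehicle library 2, the vehicle library nearest to sham in the index, Nfil3 and Cry1 were at 1.28 and 0.93 relative to the sham mean. Arntl, Clock and Npas2 were at -0.16, -0.20 and 0.04 there. The index and the order of its libraries therefore depend on where Cry1 is placed. Neither was worked out with Cry1 in the E-box arm, so the separation of vehicle from sham holds only for this placing.

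**Figure D4:**
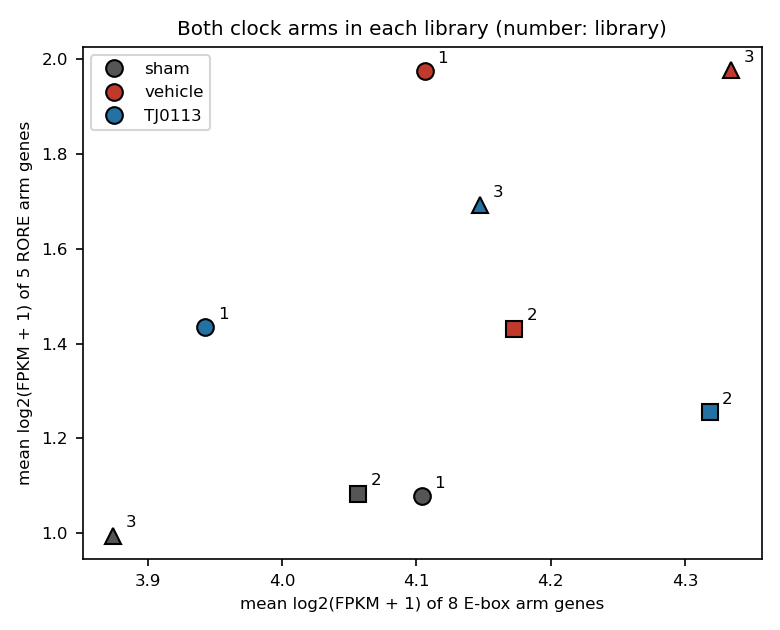
Mean log2(FPKM + 1) of 5 RORE arm genes (vertical axis) against that of 8 E-box arm genes (horizontal axis), 1 point per library. The 3 sham libraries lie lowest on the vertical axis, at 0.99 to 1.08, and the injured libraries spread from 1.26 to 1.98.

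Genes under clock or glucocorticoid control in the kidney were read beside Per1. Of 16 on the list 15 were tested, and with vehicle 5 rose over sham (Sgk1, Wee1, Cdkn1a, Tsc22d3 and Zbtb16), and the sodium-hydrogen exchanger gene Slc9a3 fell, beside 31.3 and 5.42 percent of all tested genes. Zbtb16 overlapped sham in vehicle library 2, at 0.884 FPKM against 0.375 to 0.972 FPKM, and its call was lost in 10 of 18 alternatives, among them the fits without any single sham library, vehicle library 1 or 3 or TJ0113 library 1 (adjusted p up to 0.113). Sgk1, a kinase induced by glucocorticoids and aldosterone, was at 9.32, 8.44 and 9.5 FPKM in sham, 62, 33.2 and 35.6 FPKM with vehicle, and 12.2, 16.5 and 26.1 FPKM with TJ0113. As with Per1, TJ0113 libraries 1 and 2 were nearest to sham and library 3 the highest of its group, but for Sgk1 all TJ0113 libraries were below all vehicle libraries. Sgk1 rose by 1.79 ± 0.29 with vehicle and 0.61 ± 0.29 with TJ0113 relative to the median gene (limma, adjusted p = 0.00675 and 0.0423). The TJ0113 call was lost with median-ratio scaling, quantile normalization and no filter, and without any single sham library, TJ0113 library 2 or TJ0113 library 3 (0.0637 to 0.191; lowest 0.0219). Tsc22d3, which encodes the glucocorticoid-induced protein GILZ, was at 7.58 to 9.08 FPKM in sham, 36.7, 13.6 and 26.2 FPKM with vehicle, and 8.48, 11.8 and 17.2 FPKM with TJ0113. It rose by 1.08 ± 0.34 with vehicle relative to the median gene (limma, adjusted p = 0.0176), a call lost with no filter and without sham library 2 or 3 or vehicle library 1 or 3 (0.0503 to 0.0655; lowest 0.0016).

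Other genes of this list took different courses. Fkbp5, another glucocorticoid target, was at 11.1 to 13.8 FPKM in sham, 22.8, 12.5 and 14.4 FPKM with vehicle, and 8.65, 7.9 and 8.23 FPKM with TJ0113, below both other groups. It did not pass as fitted (limma, adjusted p = 0.141 with vehicle and 0.0776 with TJ0113 against sham, and 0.796 between them). Against sham it passed as lower with TJ0113 in 5 of 19 alternatives, among them median-ratio scaling (0.0133), quantile normalization (0.0248) and the compared groups alone (0.01; highest 0.227), and as higher with vehicle without vehicle library 2 (0.0341; highest 0.909). Klf9, a clock and glucocorticoid target, was at -0.69 ± 0.17 relative to the median gene with vehicle (adjusted p = 0.0963) and fell with TJ0113 (-1.07 ± 0.17; limma, adjusted p = 0.0122; 0.0551 without sham library 2 and from 0.00378 in the alternatives). Wee1, a cell cycle kinase under clock control, rose with vehicle by 0.81 ± 0.16 (limma, adjusted p = 0.00705), from 3.85 ± 0.273 to 9.6 ± 2.35 FPKM (SD, n = 3), and was at 5.27 ± 0.172 FPKM with TJ0113. Slc9a3 fell in both comparisons, from 35.7 FPKM in sham to 16.7 and 18.8 FPKM (limma, adjusted p = 0.011 and 0.0147). Its change, -1.38 ± 0.21 relative to the median gene with vehicle, was close to the median of the 8 proximal tubule markers, -1.35.

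With TJ0113 against sham, 2 of the list rose (Sgk1 and Cdkn1a) and 2 fell (Slc9a3 and Klf9), beside 28.9 and 5.92 percent of all tested genes. The calls of Cdkn1a and Slc9a3 were lost without sham library 2 or 3 or TJ0113 library 3 (adjusted p from 0.0507 to 0.0563 and from 0.0533 to 0.0602; lowest 0.00496 and 0.00422). Between TJ0113 and vehicle 0 passed, and 13 of 15 were lower as fitted, where the median gene was at -0.03. Of the 15, 6 were under an unadjusted p of 0.05, beside 6 percent of all tested genes. Those named by smallest p were Wee1 (-0.73 ± 0.16), Fkbp5 (-0.88 ± 0.20), Sgk1 (-1.22 ± 0.29) and Zbtb16 (-1.06 ± 0.38; limma, adjusted p = 0.796 for each). The list had a median 0.38 below that of all genes.

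Immediate early genes, induced within minutes of a stimulus, were followed for the same reason. Their 14 members summed to 88.8 to 100.6 FPKM in sham, 418, 307 and 717 FPKM in vehicle libraries 1 to 3, and 232, 169 and 326 FPKM in TJ0113 libraries 1 to 3. TJ0113 library 3 was the highest of its group, as it was for Per1 and Nfil3, while among vehicle libraries the highest was library 3 here and library 1 for Per1 and Nfil3. With vehicle 14 of 14 rose over sham, beside 31.3 percent of all tested genes. Atf3 rose by 3.71 ± 0.50, Fos by 2.75 ± 0.43, Btg2 by 2.25 ± 0.38 and Egr2 by 2.26 ± 0.41 relative to the median gene (limma, adjusted p = 0.0047, 0.00687, 0.00753 and 0.0082). With TJ0113 8 of 14 rose, beside 28.9 percent of all tested genes. Among them were Junb at 1.81 ± 0.41 and Atf3 at 1.90 ± 0.50 relative to the median gene (limma, adjusted p = 0.0101 and 0.0145). The call of Atf3 was lost without sham library 2 or 3 or TJ0113 library 3 (0.0504 to 0.0613; lowest 0.00162). Between TJ0113 and vehicle 0 of 14 passed, beside 0 percent of all tested genes. At an unadjusted p under 0.05 (limma) there were 8 of 14, beside 6 percent of all tested genes. Groups did not overlap in 5 of 14, all lower, beside 4.39 percent of all tested genes in that direction. All 14 were lower as fitted, where the median gene was at -0.03, led by Fos (-1.90 ± 0.43), Btg2 (-1.42 ± 0.38) and Atf3 (-1.85 ± 0.50; limma, adjusted p = 0.796 for each). Whether the immediate early and glucocorticoid-responsive genes have a part in the level of Per1 was not tested.

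**Figure D5:**
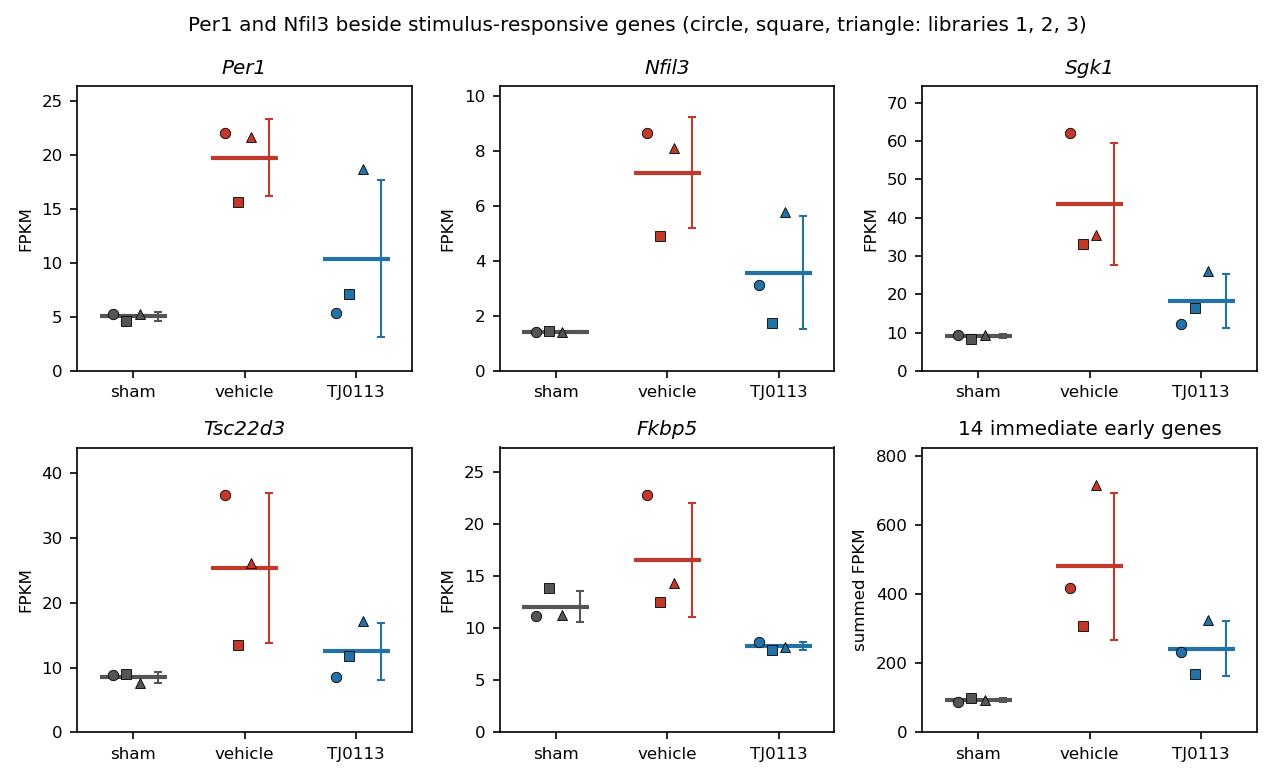
FPKM of Per1, Nfil3, Sgk1, Tsc22d3 and Fkbp5 and the summed FPKM of 14 immediate early genes (vertical axes from 0) in each group; symbols are libraries, thick bars means and error bars SD (n = 3). TJ0113 library 3, the triangle, is the highest of its group in every panel but Fkbp5, where the 3 TJ0113 libraries lie together at 7.9 to 8.65 FPKM.

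Genes whose pattern over the 9 libraries was most like that of Dbp or Arntl were found by Pearson's r of log2(FPKM + 1), used only to rank. For Dbp these were Mindy4 (r = 0.946), Gm16283 (0.934) and Eif2b2 (0.928), and after removal of group means Abcb9 (0.972), Rnpepl1 (0.959) and Agpat1 (0.959). For Arntl they were Ap4e1 (0.981), Zfp949 (0.972) and Zfp229 (0.96), and after removal of group means Zdhhc17 (0.999), Ap4e1 (0.998) and Ccr1 (0.995). None of the 20 other clock genes was among them. With 15453 genes ranked over 9 libraries that share their groups, such values describe these libraries and carry no test.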

How the data were processed

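Renal cortex RNA was extracted with TRIzol and made into paired-end messenger RNA libraries, per the labels' protocols. HISAT2 is named, without a version, per the submitters' processing notes; no source used here gives the counting tool, build or annotation. FPKM was used as deposited by the authors, without rescaling. GENCODE M21 named 33893 of the 34669 identifiers (97.8 percent), and low values times its exon lengths fell on equal steps, whole or at 0.5, to a tolerance of 0.02 (98.7 to 99 percent of values below 20 fragments), which gave the depths. The counting error given for fragments covers counting only, and SD and SE the spread between libraries. One limma 3.58.1 fit (R 4.3.3, variance trend) held all 9 libraries. It was also run on simulated libraries whose spread was the same in every group. The spread of the real groups differed, so that run cannot show how the fit handles unequal spread. Other steps used Python 3.11.15, numpy 2.4.6, pandas 2.3.3 and matplotlib 3.10.9. The members and lists were chosen with earlier results of these data known. All members were named, and from other lists up to 6 passing genes and 4 others by smallest p; several of these are given only as counts. One gene of the lists is not reported here. Replicates were alike in no pair beyond 13 genes with identical values. Alternatives changed scaling, pseudocount, filter, trend, samples fitted and replicate block. The labels write the compound also as TJ013, read as TJ0113.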

Additional observations from a re-analysis of the deposited data

How the results depend on the processing

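The alternatives were 3 scalings, 2 pseudocounts, 2 filters, no variance trend, the compared groups alone, a replicate block and 9 fits that each left out 1 library. With no filter on low values, 2933 genes passed between vehicle and sham and 3205 between TJ0113 and sham, with 5 and 4 other clock genes, and 2 members with TJ0113. Other clock genes passing with TJ0113 were 12 with median-ratio scaling and 12 with the compared groups alone. With a pseudocount of 0.1 the clock arm index differed from sham by 0.89 with vehicle and 0.55 with TJ0113, against 0.55 and 0.28 as reported. Leaving out 1 library gave 862 to 8789 genes and 1272 to 7313 genes for the comparisons of vehicle and TJ0113 with sham, 3 to 7 and 0 to 5 members, and 3 to 13 and 1 to 10 other clock genes, and 0 in every case between TJ0113 and vehicle. The deviations of same-numbered libraries correlated at -0.055, 0.501 and 0.556 between TJ0113 and vehicle, and at -0.241 to 0.033 against sham. Libraries 2 and 3 of the injured groups thus shared part of their deviations, and the source of this was not tested. The labels name no pairs, so the main fit did not take the numbers as pairs. With the replicate block 6 and 4 members passed against sham, with 6394 and 6062 genes in all. The block ended the call of Cry2 with TJ0113 against sham (adjusted p = 0.0647) and, among other genes, gave calls to Nfil3 with TJ0113 (0.0315) and to Hlf with vehicle (0.0111) and TJ0113 (0.0166).

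None of the signs that turned belonged to a difference that passed as reported. With libraries scaled by the median ratio, vehicle minus sham was -0.1356 for Arntl, -0.4244 for Nr1d2, -0.1788 for Tipin and -0.0342 for Fkbp5. After quantile normalization it was -0.2737, -0.1772 and -0.1817 for the first 3, -0.0038 for Cry2 and -0.0756 for Npas2. TJ0113 minus sham was -0.1395 and -0.3352 for Arntl under those settings, and -0.1064 for Dbp and -0.0039 for Slc5a1 under the first. With equal sums Dbp was at 0.045 for vehicle minus sham and Per3 at -0.0615 for TJ0113 minus vehicle. Leaving out 1 library moved vehicle minus sham from -0.0185 to 0.1229 for Arntl, -0.0876 to 0.1876 for Nr1d2 and -0.263 to 0.1834 for Dbp. It moved TJ0113 minus vehicle from -0.1092 to 0.056 for Arntl, -0.0821 to 0.273 for Per3 and -0.0127 to 0.5541 for Nr1d1, and TJ0113 minus sham from -0.0444 to 0.0861 for Arntl. The cause was not tested. Depth limits Cry1 in sham and Arntl most.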
